A study of Mus musculus with 30 samples.

Results

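The 10 genes described here encode the constant regions of antibodies (Ighm, Igha, Igkc, Iglc1 and Iglc2) and proteins that plasma cells use to assemble, secrete or carry antibody (Jchain, Mzb1, Xbp1, Sdc1 and Derl3). They were taken by name from the 23013 gene rows of a single-cell expression matrix, whose Entrez numbers were paired with symbols. All 10 had a row, and 9 were above 0 in at least 1 barcode; Derl3, an endoplasmic reticulum protein of secretory cells, was listed at 0 throughout.

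The matrix holds 8282 cell barcodes from 30 Seq-Well libraries, a microwell method that captures polyA RNA of single cells, taken from 8 organs of 8 mice. All were male DBA1/J mice, 8 to 12 weeks old by the study's methods, with cryopreserved organs; the labels name no transgene. The 4 mice with collagen-induced arthritis (CIA; S1, S2, S6 and S7) had received 100 µg of bovine collagen II in Complete Freund's Adjuvant near the tail base and a booster with incomplete adjuvant on day 20. By the study's methods control mice were injected with phosphate-buffered saline instead, and H3, H4, H6 and H7, the 4 healthy animals, had an arthritis score of 0. The arthritis score was 8 in S1 and S2, 3 to 4 in S6 and 3 in S7. Blood and lymph node were taken from 4 healthy and 3 CIA mice each (S2, S6 and S7 for blood, S1, S2 and S7 for lymph node). Spleen, thymus, lung, muscle, skin and joint were each taken from S1 and 1 healthy mouse (H3 for joint, H6 for the rest), which leaves no replicate there. CIA stands for immunization, adjuvant and arthritis together, which cannot be told apart. Library titles end in CIA or 2CIA, a suffix that the labels do not explain and that healthy mice carry too. In spleen, thymus, lung, muscle and skin the H6 library ends in CIA and the S1 library in 2CIA. State and suffix cannot be told apart in these organs.

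An antibody is built of paired heavy and light chains. A B cell makes IgM, whose heavy chain constant region comes from Ighm, before it may switch to another class such as IgA, encoded by Igha, or IgG. The light chain constant region is either kappa, from Igkc, or lambda, from Iglc1, Iglc2 or Iglc3. Plasma cells, the antibody-secreting end stage of the B cell line, hold very large amounts of these messages. They also use Jchain, which links IgM or IgA units into polymers, Mzb1, a chaperone of the endoplasmic reticulum that B cells share, and Xbp1, a transcription factor of the unfolded protein response that many secretory cells use. Sdc1 (CD138) is a proteoglycan of the cell surface found on plasma cells and on epithelial cells.

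The light chains are shown first, because how reads divide between the near-identical Iglc2 and Iglc3 touches the values of both, while Iglc1 is more distant. By the GENCODE annotation of GRCm38 the constant exons of Iglc1, Iglc2 and Iglc3 lie on the minus strand of chromosome 16, and Igkc lies on the plus strand of chromosome 6. The last 120 coding bases, stop codon included, are given 5′ to 3′ in the sense of the message. Capitals mark bases of Iglc1 that differ from Iglc2, bases of Iglc2 that differ from Iglc1, and bases of Iglc3 that differ from Iglc2.
Iglc1 (chr16:19061752-19061871): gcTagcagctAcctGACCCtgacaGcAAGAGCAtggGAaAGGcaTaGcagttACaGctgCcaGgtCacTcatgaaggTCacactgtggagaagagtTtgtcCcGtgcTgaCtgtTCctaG
Iglc2 (chr16:19198536-19198655): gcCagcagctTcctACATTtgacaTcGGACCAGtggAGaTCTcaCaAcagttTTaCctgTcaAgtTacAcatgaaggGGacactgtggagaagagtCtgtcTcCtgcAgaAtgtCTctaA
Iglc3 (chr16:19065365-19065484): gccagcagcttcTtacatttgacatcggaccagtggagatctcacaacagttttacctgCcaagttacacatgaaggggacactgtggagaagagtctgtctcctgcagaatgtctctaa
Igkc (chr6:70726638-70726757): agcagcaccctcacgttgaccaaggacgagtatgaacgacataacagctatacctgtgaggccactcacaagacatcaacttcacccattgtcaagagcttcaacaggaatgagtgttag

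Iglc3 differed from Iglc2 at 2 of these 120 bases and Iglc1 at 39. Over the whole coding exon 96.2% of aligned positions were identical between Iglc2 and Iglc3, and 90.0% after the stop codon, against 73.7% and 55.2% between Iglc1 and Iglc2. Reads from the 3′ end can thus be shared between Iglc2 and Iglc3, and by the study's methods only primary alignments were kept, so that the division between these 2 genes is uncertain. The reference is a C57BL/6J genome and the mice were DBA1/J; the effect of strain differences in these loci on the values was not tested. The other members lie on chromosomes 12 (Ighm 113418826-113422730, Igha 113256204-113260236 and Sdc1 8771396-8793716), 5 (Jchain), 18 (Mzb1), 11 (Xbp1) and 10 (Derl3) in RefSeq's GRCm38.p6.

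The values were read as smoothed sums rather than raw molecule counts, which is an inference. By the study's methods these data were smoothed over 12 neighbouring cells before genes were tested, and in the matrix 4590 of the 8282 profiles are distinct, the rest being exact repeats within a library. Whether the matrix is that smoothed version is not stated, and its lowest column total is less than 12 cells at the authors' minimum of 400 transcripts would give. If it is, 1 cell can stand in many barcodes. Levels are given as units per 1000000 (UPM) of all units of a library or of a mouse's libraries of 1 organ together, and mice, not barcodes, are compared. Libraries held 27 to 934 barcodes and 217494 to 7886790 units. In these sums fewer cells of a type and less RNA per cell cannot be told apart. A value of 0 is given as listed at 0, with no counting limit, since smoothed sums carry none.

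On organ means Ighm, Igha, Igkc, Iglc1 and Iglc2 were highest in spleen, but single mice overlapped with other organs for Igha, Iglc1 and Iglc2: Iglc2 reached 3093 UPM in the blood of H7, against 2565 and 848 UPM in the spleens. Igkc, the most abundant member with 111015 units in the whole series, stood at 6986 UPM in the spleen of healthy H6 and 4303 UPM in that of CIA mouse S1. Ighm stood at 2451 and 2195 UPM in those spleens. By the means blood came next, with 273 to 3428 UPM for Igkc and 152 to 1289 UPM for Ighm over 7 mice, then muscle, whose mice lay far apart, then lymph node, with 863 to 1770 UPM for Igkc and 233 to 763 UPM for Ighm. Blood, muscle and lymph node overlapped. Thymus lay lower, at 184 and 990 UPM for Igkc and 181 and 254 UPM for Ighm. Lung and joint lay between 7.08 and 159 UPM for Igkc, and both skins were listed at 0 for Ighm, Igha, Igkc, Iglc1, Iglc2, Jchain and Mzb1.

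Muscle was split between its 2 mice. In the muscle of healthy H6, Igkc stood at 2607 UPM and Ighm at 1070 UPM, as high as in blood, while in the muscle of CIA mouse S1 both stood at 52.0 UPM. The S1 muscle library held 54 barcodes of 16 distinct profiles, and Igkc and Ighm each rest there on 22 units in 11 barcodes. That of H6 held 421 barcodes of 245 distinct profiles. The H6 muscle library also held 1471 UPM of the 13 B cell markers and 105260 UPM of the 8 neutrophil markers, against 300.2 and 18630 UPM in that of S1, and their part in the split was not tested. The same B cell marker sum was 1970 and 1069 UPM in the skins of H6 and S1, where the antibody chains were listed at 0. This sum thus need not come from B cells.

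**Figure D1:**
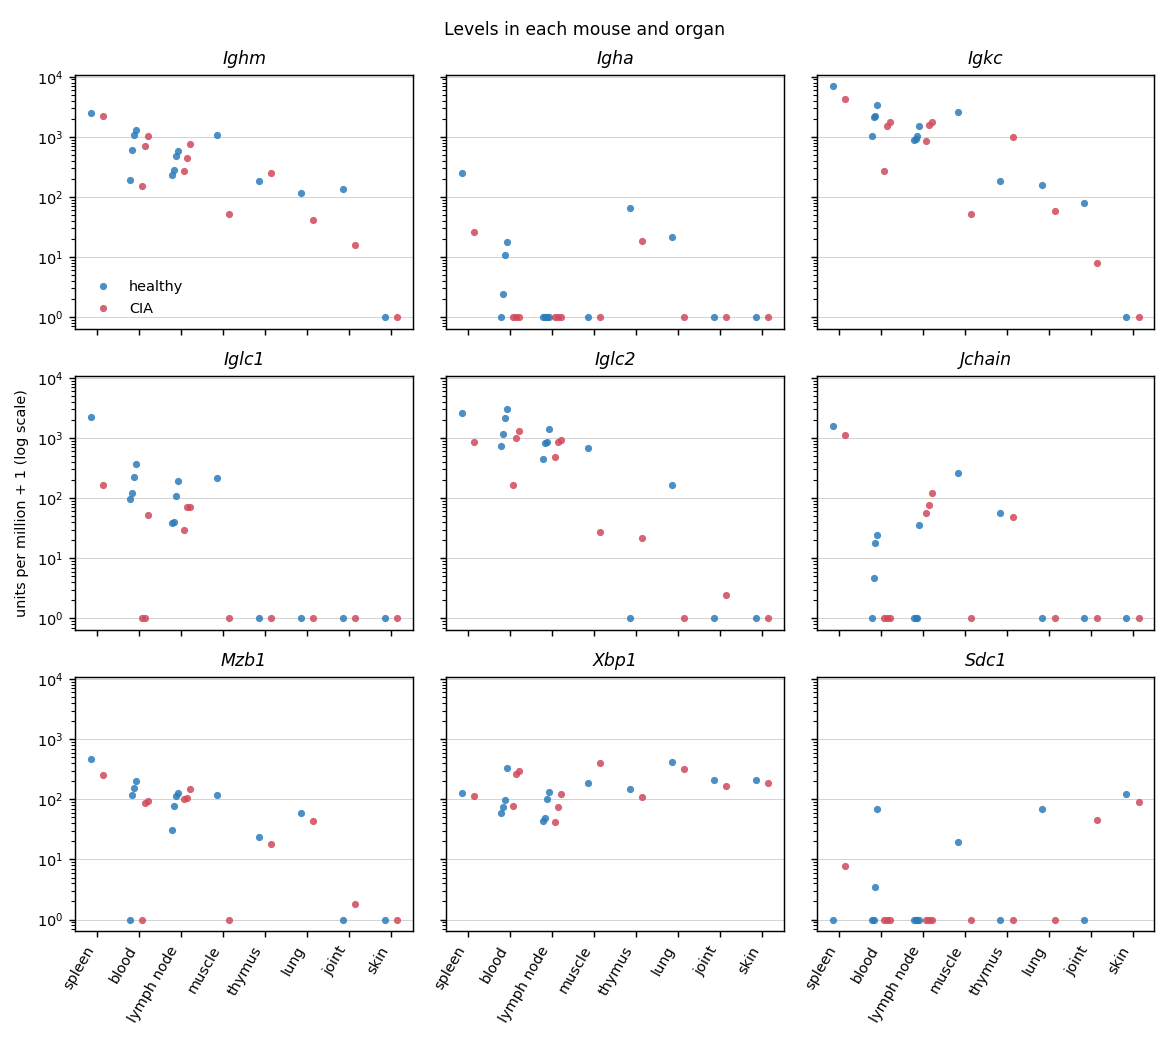
Each point is the level of a gene in 1 mouse and organ, in UPM plus 1 on a log axis, with healthy mice in blue and CIA mice in red; points on the lowest line are listed at 0. The spleen of H6 is the highest point of Ighm, Igha, Igkc, Iglc1, Jchain and Mzb1, the highest Iglc2 point is the blood of H7, and these genes are listed at 0 in skin, whereas Xbp1 stays within 40.7 and 417 UPM in every organ and Sdc1 is highest in skin.

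Igha, the IgA heavy chain, was the rarest of the 5 member chains with 1148 units in all. It reached 245 UPM in the spleen of H6 and 25.5 UPM in that of S1, and 64.8 and 17.3 UPM in thymus. In blood it stood at 16.7, 9.83 and 1.44 UPM in healthy H7, H6 and H4 and was listed at 0 in H3 and in the 3 CIA mice. These values came from libraries with the suffix CIA, and every 2CIA blood library was listed at 0. All 7 lymph nodes were listed at 0. Ighm exceeded Igha 10.0-fold in the spleen of H6, 86.2-fold in that of S1 and 77.1- to 427-fold in the 3 bloods that held both, as ratios of units not corrected for gene length.

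The lambda chains were abundant beside kappa. In mouse antibodies kappa is known to outweigh lambda, yet the ratio of Igkc units to the sum of Iglc1 and Iglc2 was 0.946 to 1.94 over the 7 lymph nodes and 0.941 to 1.72 over the 7 bloods. With Iglc3 added to the lambda sum the ratio fell to 0.656 to 1.27 and 0.627 to 1.22. Spleen gave 1.46 in H6 and 4.26 in S1, the H6 muscle gave 2.89, and the thymus of S1 gave 48.0 with 20.6 UPM of Iglc2. These are ratios between different genes with no correction for length, and whether reads of other sources were assigned to the lambda genes was not tested. Within the lambda genes Iglc2 exceeded Iglc3 by 1.40- to 2.00-fold in lymph node and 1.53- to 2.90-fold in blood. The near-identical pair also moved together, with a Pearson r of 0.983 between the logarithms of Iglc2 and Iglc3 over the 26 mouse and organ sums.

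The plasma-cell genes did not share 1 pattern over organs. Jchain followed the spleen: 70.8% of its 9832 units came from spleen libraries, at 1558 UPM in H6 and 1112 UPM in S1. It stood at 264 UPM in the H6 muscle, at 55.9 and 48.1 UPM in thymus, and was listed at 0 in joint, lung, skin and the S1 muscle. Mzb1 was likewise highest in spleen, at 466 and 253 UPM, with 30.1 to 148 UPM in lymph node and 0 to 199 UPM in blood.

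Xbp1 was above 0 in all 30 libraries. Its mean was lowest in lymph node (40.7 to 134 UPM) and highest in lung (417 UPM in H6 and 317 UPM in S1), with 127 and 111 UPM in spleen. The muscle of S1 (402 UPM) and the blood of H3 (336 UPM) lay above the lung of S1, and lymph node overlapped spleen, so these neighbours do not separate. Its level did not rank the organs as the antibody chains did. Sdc1 was highest in skin, at 124 UPM in H6 and 90.2 UPM in S1, followed on organ means by lung (67.0 UPM in H6 and 0 in S1) and joint (44.8 UPM in S1 and 0 in H3). Joint held 42.9% of its units and skin 40.0%, the former from the large S1 joint libraries. It was listed at 0 in every lymph node and thymus and in the spleen of H6, and stood at 6.91 UPM in the spleen of S1. The 8 keratinocyte markers summed to 2650 and 1734 UPM in the skins against 0 to 244 UPM elsewhere. Fibroblast markers summed to 4385 and 16890 UPM in the skins of H6 and S1 and to 22148 UPM in the S1 joint. Over the mouse and organ sums Sdc1 had a Pearson r of 0.559 with the keratinocyte and 0.568 with the fibroblast markers. Which cells held Sdc1 was not tested. The organs with the highest means of Xbp1 and Sdc1 were thus not those highest in antibody message.

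Likeness over the 26 mouse and organ sums separated the genes in the same way. The genes nearest to Ighm and Igkc were Cd69, an early activation receptor of lymphocytes (r = 0.900 and 0.931), Cytip, a regulator of leukocyte adhesion, and Cd79b, a chain of the B cell receptor (r = 0.870 and 0.868). Iglc1 was nearest to Iglj1, its own joining segment (r = 0.920), and to Fcrl1 and Fcmr, receptors of B cells. Iglc2 was nearest to Iglc3, to Ms4a1 (CD20, r = 0.972) and to Cd79a (r = 0.955). Igha and Jchain were both near Igkv1-135, a kappa variable gene (r = 0.748 and 0.753); the other neighbours of Igha were Igkv14-126 and H2ac13, and those of Jchain were Rps4x and H2-Oa. Mzb1 was nearest to Irf4 (r = 0.839), a transcription factor of B and plasma cells, then Cr2 and Dock10. Xbp1 was nearest to Itm2b, Atp6v0e and Lamp1 (r = 0.807 to 0.827), the last a lysosomal membrane protein, and Sdc1 to Apoc1, Cldn4 and Epcam, of which Cldn4 and Epcam are epithelial (r = 0.814 and 0.792). These r values describe sums that share mice, libraries and depth, and were sought among the 5417 genes whose mean reached 25 UPM.

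Within the spleen, a few barcodes carried a large part of the antibody message and more of the Jchain message. A barcode was called antibody-rich when Ighm, Igha, Igkc, Iglc1 and Iglc2 together held at least 5% of its units. There were 6 such barcodes of 167 in the spleen of H6, 9 of 532 in that of S1, 3 of 421 in the H6 muscle and none in the other 27 libraries. As distinct profiles they came to 2, 2 and 1, and how many cells each set stands for cannot be told from smoothed profiles. They held 52.3% of the 5 chains' units and 79.4% of the Jchain units of the H6 spleen, 43.3% and 83.0% of the S1 spleen, and 17.5% and 73.6% of the H6 muscle. The next barcode down, in the thymus of S1, had 2.38%, and the highest barcode was at 1.27% in lymph node and 1.58% in blood.

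The antibody-rich profiles differed in their chains. In the spleen of H6 they held 759 or 762 Igkc units, 365 or 368 Iglc1 units, 288 or 289 Ighm units, 13 or 14 Igha units and 238 or 240 Jchain units, of totals of 8901 and 9377. A kappa and a lambda chain stood there side by side, as did the heavy chains of IgM and IgA, and a smoothed profile would sum several cells. In the spleen of S1 they held 1092 or 1091 Igkc units, 7 Iglc1 units, 555 Ighm units, 1 Igha unit and 474 or 475 Jchain units, with 125 units of Ighg1, 32 of Ighg2b and 56 of Ighg2c, heavy chains of IgG. The H6 muscle profile held 629 Igkc, 228 Ighm and 216 Jchain units, 3 Iglc1 units and no Igha or IgG1 unit. Sdc1 had 2 units in the S1 spleen profiles and 0 in the others, and Mzb1 had 22 to 31 units and Xbp1 4 to 7 in all 5.

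Other plasma-cell and secretory genes in these barcodes were set beside the remaining barcodes of the same library, as a description. Of 36 secretory pathway and unfolded protein response genes, 26 were higher, in UPM, in the rich barcodes of the H6 spleen, 23 in the S1 spleen and 15 in the H6 muscle, where more were lower. As shares of the list's genes above 0 these were 76.5%, 65.7% and 44.1%, beside 22%, 16.5% and 23.5% of all genes above 0 in those libraries. Among genes of at least 25 UPM the shares were 75.9%, 67.7% and 50% of the list and 27.5%, 29.3% and 31.5% of all genes. With 1 or 2 profiles behind each share, they describe these barcodes only. Hsp90b1, a chaperone of the endoplasmic reticulum, stood at 5388 against 689 UPM, 2053 against 485 UPM and 1616 against 567 UPM in those libraries. Edem1, which helps remove misfolded proteins, stood at 325 against 37.1 UPM, 310 against 25.3 UPM and 124 against 34.1 UPM. Other genes of the list lay lower in all 3 libraries: Canx, a chaperone, stood at 145 against 200.7 UPM, 103 against 223 UPM and 124 against 184 UPM, and Pdia3, a disulfide isomerase, at 181 against 247 UPM in the H6 spleen and at 0 against 128 UPM and 294 UPM in the other libraries. Of the 21 plasma-cell factors, 12, 12 and 7 were higher, which is 63.2%, 60% and 43.8% of those above 0. Tnfrsf17 (BCMA), a receptor of plasma cells, had 1 unit in each rich spleen profile and 0 in the rest of both spleens. Prdm1, a regulator of plasma-cell fate, was listed at 0 in the rich spleen profiles. The H6 muscle profile went the other way, with 1 unit of Prdm1 and 0 of Tnfrsf17. Of 13 B cell markers, all above 0 in each library, 3, 5 and 9 were higher, beside the same 22%, 16.5% and 23.5% of all genes. In the H6 muscle, 9 of 13 B cell markers were higher, with 7 of 16 plasma-cell factors and 15 of 34 secretory genes above 0.

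**Figure D2:**
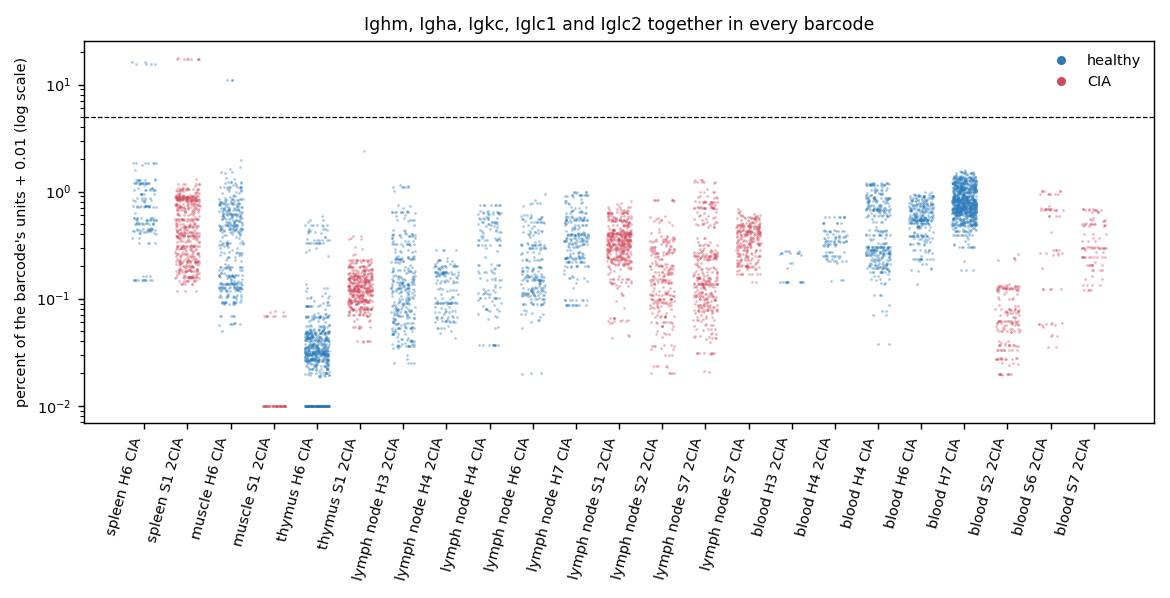
Each point is 1 barcode, and its height is the share of its units that belongs to Ighm, Igha, Igkc, Iglc1 and Iglc2 together, in percent plus 0.01 on a log axis, by library; blue marks healthy and red CIA mice, and the dashed line marks 5%. Only 6, 9 and 3 barcodes of the H6 spleen, S1 spleen and H6 muscle lie above the line.

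With 1 mouse per state, spleens could be compared only as values, scaled by a trimmed mean and as folds of the value plus 10. State went with the title suffix here, as in muscle, lung, skin and thymus. Of the 8 members whose mean reached 25 UPM in spleen, 3 were more than 2-fold lower in S1 than in H6 and 0 were higher, against 35.7% of 5813 genes past 2-fold in either direction. These 3 were Iglc1, at 163 against 2206 UPM (log2 difference of −3.33), Igha, at 25.5 against 245 UPM (−2.54), and Iglc2, at 848 against 2565 UPM (−1.23). Igkc (−0.34), Ighm (0.19), Jchain (−0.13), Mzb1 (−0.51) and Xbp1 (0.14) stayed within 2-fold. The S1 spleen held 98019 UPM of the neutrophil and 91715 UPM of the erythroid markers, against 4407 and 519 UPM in H6. B cell markers summed to 2455 UPM in S1 and 3434 UPM in H6. The part of these cells in the differences was not tested. With each distinct profile taken once, Igkc (−1.08) and Jchain (−1.39) were past 2-fold as well, and 5 of 8 members were lower, against 37.3% of genes. Outside the antibody-rich barcodes Iglc1 stood at 152 UPM in S1 and 325 UPM in H6, Igha at 24.0 and 183 UPM, and Jchain at 193 and 337 UPM. Of the IgG heavy chains, Ighg1 stood at 285 UPM in S1 and 12.9 UPM in H6, Ighg2c at 129 and 12.9 UPM, Ighg2b at 72.7 and 26.7 UPM, and Ighg3, the one lower in S1, at 46.6 and 68.9 UPM. Outside the antibody-rich barcodes Ighg1 stood at 43.3 UPM in S1 and 8.14 UPM in H6, Ighg2c at 20.9 and 8.14 UPM, Ighg2b at 10.8 and 22.6 UPM and Ighg3 at 43.5 and 65.1 UPM, so that most of the S1 excess lay in 2 profiles and Ighg2b was lower in S1 without them.

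In muscle 6 of 7 members past the mean of 25 UPM were more than 2-fold lower in S1, where 54.3% of 5714 genes were past 2-fold; Xbp1, the seventh, was past it as higher when scaled by the total alone. In lung it was 4 of 6 (47.0% of 5122), again lower in S1: Ighm, Igkc, Iglc2 and Sdc1. The B cell markers of lung were listed at 0 in S1 and summed to 515 UPM in H6. Its neutrophil markers summed to 17471 UPM in S1 and 496 UPM in H6, and the part of these cells was not tested. In joint 3 of 4 members passed (26.8% of 5635), Ighm and Igkc lower and Sdc1 higher in S1, at 44.8 against 0 UPM. With scaling by the total Sdc1 did not reach the mean of 25 UPM, which left 2 of 3. In thymus 2 of 5 passed (17.1% of 5901), with Igkc at 990 UPM in S1 against 184 UPM in H6 and Igha at 17.3 against 64.8 UPM. In skin neither Xbp1 nor Sdc1 passed (24.9% of 5628). Many of these members reached the mean of 25 UPM only through the mouse in which they were high, namely Iglc1, Iglc2, Jchain and Mzb1 in muscle, Iglc2 and Sdc1 in lung, Ighm, Igkc and Sdc1 in joint and Igha in thymus, so that their place in the counts follows from the difference itself and the counts support nothing. Of the Jchain units in the thymus of S1, 49.8% lay in 1 barcode, which also held 728 Igkc units and 138 units of Ighg2c.

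In the draining lymph nodes no member passed the test between healthy and CIA mice. By limma on log2(UPM + 10) after trimmed-mean scaling, 0 of the 7 members tested had a Benjamini-Hochberg adjusted p under 0.05, where 1 of 5060 genes did (0.0198%) and 214 genes had an unadjusted p under 0.05. Igkc stood at 885, 921, 1023 and 1536 UPM in healthy H3, H4, H6 and H7 and at 1770, 863 and 1587 UPM in S1, S2 and S7. The groups overlapped, with a mean of 1091 ± 302 (SD, n = 4) against 1407 ± 480 (SD, n = 3) and a log2 difference of 0.38 ± 0.28 (SE), which ran from 0.21 to 0.70 when 1 mouse was left out and was 1.07 with the 2CIA libraries alone. Ighm stood at 393 ± 165 and 493 ± 250 UPM (log2 difference of 0.33 ± 0.38), Iglc2 at 892 ± 407 and 745 ± 236 UPM (−0.15 ± 0.36) and Iglc1 at 93.8 ± 72.7 and 56.2 ± 23.7 UPM (−0.42 ± 0.50). The median over all genes tested was 0.09. Globin genes took 0.00953% to 14.0% of the units of the healthy lymph nodes, the most in H7, which was also the highest healthy node for Igkc, Iglc1 and Iglc2, and 0.0204% to 0.0646% in the CIA lymph nodes; their part in the values was not tested.

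Jchain had a log2 difference of 2.68 ± 0.70 (SE) in lymph node and did not pass (unadjusted p = 0.00152, limma adjusted p = 0.904). It stood at 76.4, 55.0 and 122 UPM in CIA mice S1, S2 and S7, at 35.2 UPM in healthy H3, and was listed at 0 in H4, H6 and H7. The groups did not overlap, which held for 1 of the 7 members and for 6.17% of the genes tested. Jchain reached the mean of 25 UPM only through the CIA mice (84.6 ± 34.4 UPM against 8.80 ± 17.6 UPM), so that its place among the genes tested follows in part from the difference itself and supports nothing; without the filter the limma adjusted p was 0.305. The values rest on few profiles. In S7, 19 barcodes of 10 distinct profiles held 85.2% of the Jchain units of its 2CIA library, each with exactly 31 units of Jchain and 92 to 94 units of Ighg1. In S2, 6 barcodes with 1 profile held 62.1%, each with 12 units. In S1, 187 of 454 barcodes held 1 to 3 units.

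The titles of the libraries end in CIA or 2CIA, which the labels do not explain, and Jchain in lymph node followed this suffix as well. It was above 0 in 4 of 5 lymph node libraries with the suffix 2CIA and in 0 of 4 with the suffix CIA, and of the 2 libraries of S7 one stood at 208 UPM (2CIA) and the other at 0 (CIA). With each library as a sample and the suffix as a term, the log2 difference of Jchain was 1.47 (unadjusted p = 0.111 in limma), and with the 2CIA libraries alone it was 2.40. Plasmacytoid dendritic cells, which also express Jchain, were not set apart. Their 7 markers with a row summed to 77.2 to 357 UPM in the healthy lymph nodes, the most in H3, and 214 to 321 UPM in the CIA lymph nodes. The same sum was 544 UPM in the S1 muscle and 338 UPM in the S1 joint, where Jchain was listed at 0. Siglech, one of these markers, was above 0 in 6 of the 19 high barcodes of S7. The part of these cells in the Jchain values was not tested.

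In lymph node IgG heavy chains were above 0 in CIA mice and listed at 0 in the 4 healthy mice. Of these chains only Ighg1 was tested, and it did not pass. Blood went the other way. Ighg3 stood there at 14.8, 10.8 and 16.6 UPM in healthy H4, H6 and H7, all from libraries with the suffix CIA. Every IgG chain was listed at 0 in the CIA bloods, which are 2CIA libraries. Ighg1 stood at 57.3 and 334 UPM in S1 and S7 and was listed at 0 in S2 and in the 4 healthy mice; that of S7 came from its 2CIA library, at 569 UPM, and its CIA library was listed at 0 (log2 difference of 2.63 ± 1.22, limma adjusted p = 0.962). Like Jchain, Ighg1 reached the mean of 25 UPM only through the CIA mice. Ighg2b stood at 57.6 and 24.6 UPM in S1 and S2, Ighg2c at 85.4 UPM in S1 and Ighg3 at 12.2 UPM in S7. These chains were listed at 0 in the other lymph nodes, and S1 and S2 had only 2CIA libraries there. Of the chains listed beside the members, 0 of 3 tested passed, and Ighd, the IgD heavy chain of mature B cells, stood at 203 ± 102 and 240 ± 26.2 UPM.

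**Figure D3:**
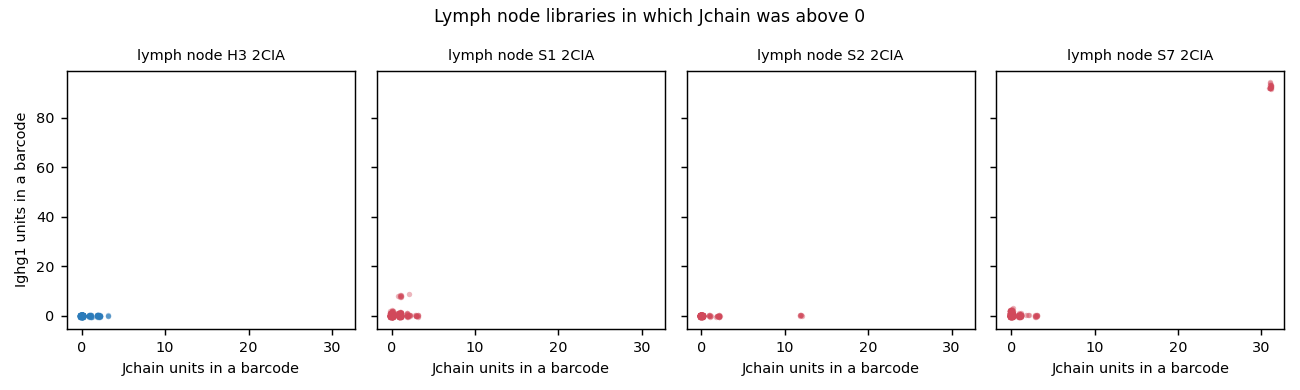
Each point is 1 barcode of a lymph node library in which Jchain was above 0, with its units of Jchain across and of Ighg1 upward, jittered by under 0.5 units; blue marks the healthy and red the CIA mice. The 19 barcodes of S7 with 31 Jchain units stand apart at 92 to 94 Ighg1 units, and H3 holds no Ighg1.

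Mzb1 and Xbp1 showed no difference past the test in lymph node. Mzb1 stood at 86.7 ± 43.7 UPM in healthy and 117 ± 26.5 UPM in CIA mice (log2 difference of 0.56 ± 0.42, limma adjusted p = 0.962, and 0.18 without H6) and Xbp1 at 81.1 ± 43.0 and 78.1 ± 40.2 UPM (0.01 ± 0.42). Of the plasma-cell factors 0 of 10 tested passed, with the smallest p for Ly6c2 (log2 difference of 0.79) and Irf4 (0.80). Of the secretory genes 0 of 29 passed, and Ssr3, a part of the protein translocation site, had the smallest p (1.42 ± 0.54). The 13 B cell markers summed to 1225 to 2623 UPM in healthy and 1446 to 2329 UPM in CIA lymph nodes.

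In blood, every antibody chain tested was fitted lower in CIA mice, and none passed. By limma 0 of the 6 members tested had an adjusted p under 0.05, where 6 of 4704 genes did (0.128%) and 462 had an unadjusted p under 0.05. The median over all genes was −0.55, so that the shift of a member is to be read against it. Globin genes took 3.57% to 51.6% of the units of a blood sum, and the scaling factors ran from 0.447 to 1.99.

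In blood Iglc1 stood at 96.6, 118, 222 and 373 UPM in healthy H3, H4, H6 and H7, at 51.2 UPM in S2, and was listed at 0 in S6 and S7. These plain levels did not overlap, but after trimmed-mean scaling they did, as did those of all 6 members; 8.91% of genes did not overlap after scaling. The log2 difference was −3.35 ± 0.89 (SE; unadjusted p = 0.000372, limma adjusted p = 0.102), and −2.57 with the 2CIA libraries alone. Iglc1 reached the mean of 25 UPM only through the healthy mice (203 ± 126 UPM against 17.1 ± 29.6 UPM), so that its place among the genes tested follows in part from the difference itself; without the filter the limma adjusted p was 0.0847. For Iglc2 the mean was 1777 ± 1052 UPM over the healthy mice (SD, n = 4) and 822 ± 585 UPM over the CIA mice (SD, n = 3), with a log2 difference of −1.82 ± 0.63 (limma adjusted p = 0.363), which became −0.64 with the 2CIA libraries alone. Igkc stood at 1016, 2118, 2210 and 3428 UPM in the healthy mice and 273, 1494 and 1744 UPM in S2, S6 and S7, which overlapped. Its log2 difference was −1.64 ± 0.64 (limma adjusted p = 0.430), and it was −0.57 with the 2CIA libraries alone. Ighm gave −0.86 ± 0.65, −1.56 to −0.38 when 1 mouse was left out, and 0.51 with the 2CIA libraries alone.

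B cell markers were fitted lower in the same comparison, with summed levels of 1582 to 4799 UPM in healthy and 657 to 3262 UPM in CIA blood and a median log2 difference of −1.44 over 13 markers, none of which passed. T cell markers were fitted lower as well, with sums of 527 to 1968 UPM in healthy and 237 to 596 UPM in CIA blood and a median of −2.27 over 8 markers tested, and 6 erythroid markers had a median of −1.21. The 8 neutrophil markers summed to 1591 to 5330 UPM in healthy and 5235 to 73245 UPM in CIA blood. Their median log2 difference was 2.48, and 1 of them passed, Retnlg (4.09 ± 0.78, limma adjusted p = 0.0031). By the study's methods the blood was mononuclear cells from a density gradient with red cell lysis, steps that should remove neutrophils and red cells. The part of these cells in the lower chain values was not tested. All 3 CIA bloods carry the suffix 2CIA, as did H3 and 1 of the libraries of H4, and the blood of H3 rests on 27 barcodes.

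Mzb1 was at 116 ± 84.7 UPM in healthy and 60 ± 52.1 UPM in CIA blood (−1.11 ± 0.97, and −0.0010 without S6) and Xbp1 at 142 ± 130 and 210 ± 117 UPM (0.25 ± 0.72), neither past the test. Igha, Jchain and Sdc1 lay under the mean of 25 UPM. All 3 were listed at 0 in the CIA bloods, while Jchain stood at 22.9, 16.9 and 3.69 UPM in healthy H6, H7 and H4 and Sdc1 at 69 and 2.46 UPM in H3 and H4. Igha and Jchain were above 0 only in blood libraries with the suffix CIA, of 306 to 934 barcodes. Both were listed at 0 in every 2CIA blood library, of 27 to 173 barcodes, those of healthy H3 and H4 included. Two-sided exact permutation tests over the 4 against 3 mice gave p = 0.229 for Igha, 0.229 for Jchain and 0.571 for Sdc1, where the smallest p this design allows is 0.0571. Of the plasma-cell factors 0 of 10 tested passed, led by Ly6c2 (3.37 ± 0.87, limma adjusted p = 0.102) and Irf4 (−2.13 ± 1.08), and of the secretory genes 0 of 30, led by Ddit3, a stress-induced transcription factor (−2.56 ± 0.76), and Calr (−1.86 ± 0.87).

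The difference between the organs in their CIA response was tested directly, and 0 of 6 members passed, as did 0 of 4857 genes (0.0%; 409 had an unadjusted p under 0.05 in limma). Iglc1 gave 2.93 ± 1.10 (SE), Igkc 1.83 ± 0.70, Mzb1 1.52 ± 1.34, Iglc2 1.48 ± 0.76, Ighm 1.00 ± 0.86 and Xbp1 −0.41 ± 0.86, where positive values mean a higher CIA minus healthy difference in lymph node than in blood. Leaving out 1 mouse moved Iglc1 from 2.18 to 4.39, Mzb1 from 0.37 to 2.56 and Ighm from 0.59 to 1.84. The median over all genes was 0.53. B cell markers had a median of 1.55, T cell markers of 1.86, neutrophil markers of −1.79 and erythroid markers of −2.65 in this fit. The part of these cells in the chain values was not tested. S2, S7 and the 4 healthy mice gave both organs; with the mouse as a block 1 gene and 0 members passed, and Igkc gave 1.76 and Iglc1 2.25.

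In the 4 healthy mice the chains were fitted lower in lymph node than in blood, and 0 of 6 members passed, where 2 of 4990 genes did (0.0401%; 742 had an unadjusted p under 0.05). The log2 difference was −1.25 ± 0.50 (SE) for Igkc, −1.44 ± 0.58 for Iglc1, −1.24 ± 0.54 for Iglc2 and −1.11 ± 0.62 for Ighm (−1.90 without H3 and −0.55 without H6), with limma adjusted p of 0.279, 0.281, 0.306 and 0.423. With the mouse as a block, where 9 genes passed, the same values had adjusted p of 0.221, 0.210, 0.192 and 0.364. Xbp1 gave −0.83 ± 0.47 and Mzb1 −0.32 ± 0.84. B cell markers had a median log2 difference of −0.97 and T cell markers of 1.30 in the same fit. Since the healthy samples serve in each of these fits, their values are not independent of each other.

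**Figure D4:**
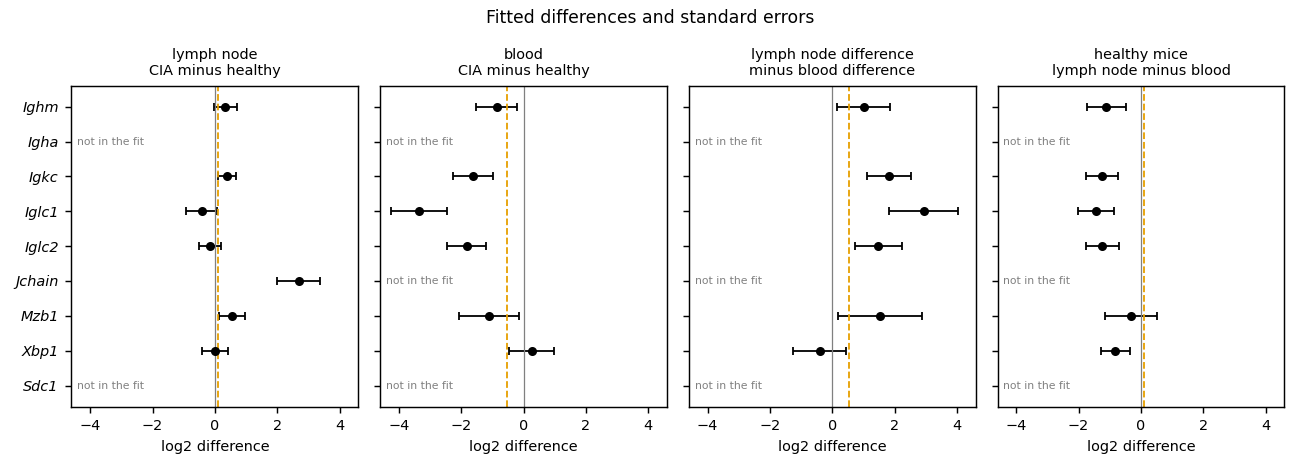
Points give the fitted log2 difference of each member and bars its standard error (SE) in the 4 fits over mice; the grey line marks 0 and the dashed line the median of all genes tested. Jchain in lymph node (2.68) and Iglc1 in blood (−3.35) lie farthest from 0 in their own fits, and no member passed an adjusted p of 0.05.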

How the data were processed

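Seq-Well libraries of 8 mice were used. Per the study's methods the authors ran bcl2fastq, Picard, Drop-seq tools and STAR on GRCm38, kept cells with at least 10000 reads, 400 transcripts and 200 genes, and smoothed the data over 12 neighbours before testing; the submitters' notes name the builds GRCh38 and mm9 instead. The deposited signal values are whole numbers, treated here as smoothed sums of UMIs because many barcodes of a library repeat exactly; that the matrix is the smoothed version is an inference. They stand in 23013 rows by Entrez number, of which 21404 had a symbol in RefSeq's GRCm38.p6 table; rows without one held 3.39% of all units, and no mitochondrial row was found. Column totals were 4373 to 36435 (median of 7615), and 13 barcode sequences occurred in more than 1 library. Doublets were not called.

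Columns were summed by mouse and organ (26 sums; 4 combine 2 libraries). Genes averaging 25 UPM or more were fitted with limma 3.58.1 in R 4.3.3 on log2(UPM + 10), after trimmed-mean scaling, with Benjamini-Hochberg adjustment; folds on this scale understate changes of low genes. The mouse was the unit, so p-values measure the spread between animals. Genes named beyond the members were the 3 most alike per member and those with the smallest p in the listed pathways; Hsp90b1, Edem1, Canx, Pdia3, Prdm1, Tnfrsf17 and the IgG chains were named after their values were seen. The members and lists were chosen with earlier results of these data known. Scripts were tested on simulated data. Numbers in the titles pair blood and lymph node of the same animal; the deviations of the 6 pairs correlated at r of −0.29 to 0.17. Alternatives were the pseudocount, the filter, the scaling, the trend, each distinct profile once, the title suffix, the mouse block and leaving out each mouse.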

Additional observations from a re-analysis of the deposited data

Results flagged for a closer look

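In 3 of the 16 groups of 4 mice examined, 1 mouse lay farther from the others than Dixon's 95% critical value allows, where chance gives about 1 in 20 groups of continuous values; all 3 concern healthy H3. Xbp1 stood at 336 UPM in the blood of H3, against 58.8 to 98.3 UPM in the other healthy bloods. Sdc1 stood at 69 UPM in the same blood, which rests on 27 barcodes with 7 distinct profiles, against at most 2.46 UPM. Jchain stood at 35.2 UPM in the lymph node of H3, whose library carries the suffix 2CIA, and was listed at 0 in the other 3 healthy lymph nodes, so that any value above 0 would have met the criterion and the chance rate does not apply.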

How the results depend on the processing

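No member passed an adjusted p of 0.05 in limma under any alternative run, 18 in lymph node, 17 in blood, 18 for the difference between organs and 15 for healthy lymph node against blood. The cause of the sign changes below was not tested. In lymph node Xbp1 became −0.029 with scaling by the total, −0.047 with median-of-ratios scaling and −0.085 with the total without globin genes. With 2CIA libraries alone, CIA libraries alone and the suffix as a term, Xbp1 gave −0.66, −0.96 and −0.78, Iglc1 0.44, 0.18 and 0.34, and Iglc2 0.74, 0.090 and 0.49. In blood the 2CIA libraries alone and the suffix term gave 0.51 and 0.43 for Ighm and 0.25 and 0.011 for Mzb1. For healthy lymph node against blood, Mzb1 became 0.35 with a pseudocount of 1, 0.11 with scaling by the total and 0.82 with 2CIA libraries alone, which gave 0.25 for Xbp1. Leaving out 1 mouse gave, in lymph node, 0.21 to 0.70 for Igkc, 0.18 to 0.81 for Mzb1, −0.0086 to 0.70 for Ighm, −0.72 to 0.022 for Iglc1, −0.48 to 0.15 for Iglc2 and −0.30 to 0.36 for Xbp1; −2.09 (without H3) to −0.0010 (without S6) for Mzb1 and −0.31 to 0.94 for Xbp1 and −1.56 to −0.38 for Ighm in blood; −1.12 to 0.55 for Xbp1 in the difference between organs; and −1.29 to 0.35 for Mzb1 in healthy lymph node against blood. Jchain in lymph node stayed between 1.24 and 5.11, with adjusted p of 0.28 to 0.999, and gave 2.39 without S7; CIA libraries alone gave no value. Iglc1 in blood ran from −5.53 with a pseudocount of 1 to −1.93 with 50, and from −4.49 to −2.73 leaving out 1 mouse, with adjusted p of 0.0504 to 0.931. Genes called over the table ran from 0 to 11 in lymph node, 0 to 23 in blood, 0 to 3 for the difference and 0 to 13 for healthy lymph node against blood. With 2CIA libraries alone Ighm gave 0.17 in the difference between organs and −0.19 in healthy lymph node against blood. With the replicate block (the mouse), Mzb1 gave 0.22 in the difference between organs, 1 and 9 genes were called in the last 2 comparisons, and the block changed no call of a member. A threshold of 2% or 10% in place of 5% gave 19 and 18 antibody-rich barcodes. Smoothed sums carry no counting interval, and 6 organs with 1 mouse per state allow no test.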
